A study of Homo sapiens with 38 samples.

Results

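Small RNA libraries of total RNA from small extracellular vesicles (sEV) of HL60 cells were compared with libraries from large extracellular vesicles (lEV) of the same line. The comparison holds 6 libraries, 3 of each kind, chosen by their titles out of 38 in the series, and covers every feature and RNA class of the count table. HL60 is an established human acute myeloid leukaemia line, labelled wild type. Both kinds of vesicle came from cells kept for 2 days in medium without fetal bovine serum. The 3 HL60 cell libraries, shown as the level in the cells of origin, came from cells grown with 10% serum, so their medium differed from that of the vesicles. A second leukaemia line, KG1a, gave 3 sEV and 3 lEV libraries in the same way and is used where the same comparison is set beside HL60. The method that separated the vesicles by size is not given in the sources used here, and the labels do not say that replicates are separate cultures. The p-values therefore weigh the spread between libraries, which may be technical.

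Cells release vesicles by more than one route. Large vesicles are commonly shed from the cell surface or during cell breakdown and can enclose organelle parts, whereas small ones include exosomes, which form inside endosomes. Vesicle RNA is dominated by short and structured RNAs: tRNAs and their fragments, rRNA fragments, Y RNAs, small nuclear RNAs and miRNAs. Mitochondria have their own circular chromosome, which encodes respiratory chain subunits, rRNAs and tRNAs, and are larger than an exosome.

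The library totals were 11927270 to 13669666 counts in lEV and 5498168 to 10408586 in sEV. Of 90127 features in the table, 47897 had a count in at least 1 of the 6 libraries. Features without a gene symbol held 92.12% of the counts, since most tRNA, miRNA and snoRNA entries carry RNAcentral identifiers that the references do not name. Replicate 2 of lEV stood apart by low miRNA classes, and replicate 1 of sEV by single features at very high values, of which PCNA was the most abundant at 32870 counts per 1000000 counts of its library (CPM). mRNA markers of the granulocyte lineage were scarce: MPO, the myeloperoxidase mRNA, had 4.44, 7.10 and 6.51 CPM in lEV and 2.91, 3.47 and 3.55 in sEV, and the summed neutrophil granule list lay at 7.63 to 12.9 CPM in lEV and 8.55 to 17.0 in sEV. A list of 12 erythroid, platelet and plasma mRNAs summed to at most 0.512 CPM in lEV and to 0.673 to 9.46 in sEV, where the top value was PF4 in replicate 1. HBA1, HBA2 and PPBP were listed at 0 in all 6. The gene entries of MIR223 and of the widely expressed RN7SK, RMRP and RPPH1 were also listed at 0, and 99.63% of the miRNA class counts lay on RNAcentral entries, so such zeros do not give the level of these RNAs.

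Sequences of 3 kinds are shown because the results below turn on them: mitochondrial tRNAs, Y RNAs and copies of the 5.8S rRNA gene. All were read from the GENCODE 29 transcripts on GRCh38. In the mitochondrial tRNAs the capitals mark the anticodon. MT-TN (chrM:5657-5729, minus strand, tRNA for asparagine), MT-TH (chrM:12138-12206, plus strand, histidine) and MT-TL2 (chrM:12266-12336, plus strand, leucine) had the lowest log2 fold changes of the mitochondrial tRNAs with more than 3 counts in sEV, and MT-TV (chrM:1602-1670, plus strand, valine), MT-TC (chrM:5761-5826, minus strand, cysteine) and MT-TS1 (chrM:7446-7514, minus strand, serine) are 3 of those that did not pass the test.
MT-TN: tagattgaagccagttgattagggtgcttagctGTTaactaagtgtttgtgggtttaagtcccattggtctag
MT-TH: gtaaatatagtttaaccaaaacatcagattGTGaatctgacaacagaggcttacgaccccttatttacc
MT-TL2: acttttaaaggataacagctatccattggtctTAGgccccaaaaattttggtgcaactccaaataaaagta
MT-TV: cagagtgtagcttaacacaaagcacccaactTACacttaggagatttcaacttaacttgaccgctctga
MT-TC: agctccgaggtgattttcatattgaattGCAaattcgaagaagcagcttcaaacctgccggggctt
MT-TS1: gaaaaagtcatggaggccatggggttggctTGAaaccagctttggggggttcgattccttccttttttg

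Y RNAs are short cytoplasmic RNAs, transcribed by RNA polymerase III, that bind the Ro60 protein. RNY1 (chr7:148987136-148987248, minus strand) and RNY4 (chr7:148963315-148963410, plus strand) lie near one another on chromosome 7. The capitals mark the 11 bases with which both begin, and many copies of these genes are scattered through the genome.
RNY1: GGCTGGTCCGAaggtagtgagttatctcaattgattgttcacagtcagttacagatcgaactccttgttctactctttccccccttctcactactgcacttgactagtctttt
RNY4: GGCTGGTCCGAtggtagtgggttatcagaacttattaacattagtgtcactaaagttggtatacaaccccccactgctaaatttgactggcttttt

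The 5.8S rRNA is a component of the large ribosomal subunit. RNA5-8SN2 (chr21:8395607-8395759, plus strand) is one of its gene copies. RNA5-8SP2 (chr16:34162959-34163110, plus strand) and an unnamed copy of the Rfam family RF00002 on chromosome 22 (chr22:11249809-11249959, minus strand) are shown beside it, with capitals at the bases that differ from RNA5-8SN2 in a pairwise alignment. They match it at 91.4% and 90.7% of their bases.
RNA5-8SN2: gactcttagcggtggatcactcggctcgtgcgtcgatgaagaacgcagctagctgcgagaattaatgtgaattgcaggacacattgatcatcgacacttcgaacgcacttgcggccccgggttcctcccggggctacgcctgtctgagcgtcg
RNA5-8SP2: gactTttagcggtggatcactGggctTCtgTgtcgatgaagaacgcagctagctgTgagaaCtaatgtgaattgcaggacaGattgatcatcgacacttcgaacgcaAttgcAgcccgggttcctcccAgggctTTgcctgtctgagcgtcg
RF00002, chromosome 22: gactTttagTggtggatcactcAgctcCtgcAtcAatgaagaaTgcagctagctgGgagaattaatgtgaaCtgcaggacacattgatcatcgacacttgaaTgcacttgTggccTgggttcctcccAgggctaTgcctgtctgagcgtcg

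tRNA entries took the most counts in both kinds of vesicle, and their share was lower in sEV, while the share of rRNA was higher. The tRNA class held 57.6%, 63.2% and 51.1% of the counts in the lEV libraries and 39.0%, 31.7% and 41.5% in the sEV libraries, against 19.7% to 20.7% in cells. All 3 sEV libraries were below all 3 lEV libraries. The rRNA class held 6.86%, 4.94% and 5.69% in lEV and 14.1%, 29.9% and 18.1% in sEV, a mean 3.55 times higher in sEV. The lncRNA class held 22.7%, 26.9% and 28.6% in lEV and 15.8%, 13.04% and 17.9% in sEV. Nearly all of it in lEV, and most of it in sEV, was 1 feature without a symbol, ENSG00000286171.1. It held 22.1%, 26.4% and 28.0% of all counts in lEV and 13.02%, 9.91% and 16.8% in sEV. With that feature left out of the totals, the lncRNA class was 1.94 percentage points higher in sEV, so its direction rests on this feature.

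**Figure D1:**
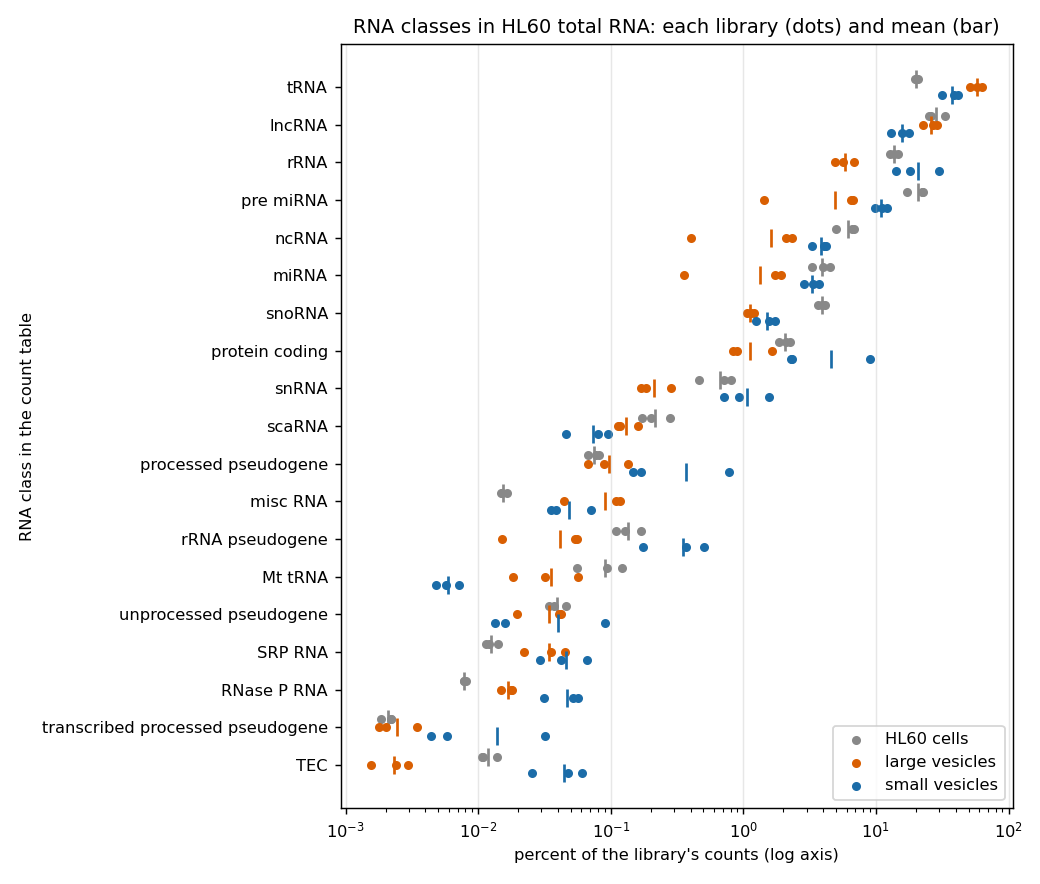
Share of each library's counts in 19 RNA classes (percent, log axis) for HL60 cells (grey), large vesicles (orange) and small vesicles (blue), with 1 dot per library and a bar at the mean of 3. The tRNA dots of the small vesicles sit between 31.7% and 41.5%, below all large vesicle dots, and those of the rRNA class sit between 14.1% and 29.9%, above them.

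Classes of smaller share followed both directions. The snRNA class, spliceosomal RNAs among others, held 0.168%, 0.185% and 0.286% in lEV and 0.923%, 0.708% and 1.57% in sEV. The pre_miRNA class held 6.48%, 1.43% and 6.73% in lEV and 11.1%, 12.04% and 9.90% in sEV, and the miRNA class 1.72%, 0.359% and 1.93% against 3.37%, 3.73% and 2.85%. Replicate 2 of lEV was low in both, and the groups remained apart without it. Protein-coding features held 0.842%, 0.890% and 1.65% in lEV and 9.07%, 2.33% and 2.30% in sEV, with PCNA alone at 32870 CPM in sEV replicate 1. Mitochondrial tRNAs held 0.0183%, 0.0563% and 0.0320% in lEV and 0.00717%, 0.00575% and 0.00481% in sEV. The scaRNA class, guides for modification of spliceosomal RNAs in Cajal bodies, held 0.161%, 0.114% and 0.118% in lEV and 0.0456%, 0.0797% and 0.0946% in sEV. Its lower share rests largely on its most abundant entry, the only 1 of 10 scaRNA features tested singly that passed.

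Of 19 classes with a mean of at least 0.01% in either group, 16 had shares that did not overlap between the groups, 12 of them higher in sEV and 4 lower (tRNA, lncRNA, scaRNA and mitochondrial tRNA). For each of the 16 the two-sided exact permutation test gave p = 0.1, the smallest value that 3 against 3 libraries allow, and 0.119 after Benjamini-Hochberg adjustment over the 19 classes, so none passed 0.05. The shares of a library sum to a whole, so they are not independent of one another. The SRP_RNA, misc_RNA and unprocessed pseudogene classes overlapped between the groups.

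More features had reads in sEV although its libraries were shallower. After each library was thinned to 5498168 counts, 14181, 16458 and 17060 features had at least 1 count in lEV and 28685, 23971 and 23381 in sEV (means 15900 ± 1519 and 25346 ± 2907, SD, n = 3). All sEV libraries lay above all lEV libraries, and the two-sided exact permutation p was 0.1. lncRNA features with a count numbered 1642, 3233 and 2176 in lEV and 7967, 5900 and 5098 in sEV, and protein-coding ones 8575, 9585 and 10282 against 14945, 12843 and 12745. tRNA entries differed less in number, with 457, 444 and 462 in lEV and 539, 494 and 504 in sEV.

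Feature by feature, edgeR's quasi-likelihood test found 317 features higher and 102 lower in sEV among 5813 tested, at a Benjamini-Hochberg adjusted p under 0.05. This is 7.21% of the features, 5.45% higher and 1.75% lower. The 102 lower features were mostly mitochondrial RNAs, tRNAs and Y RNAs: 77 of them lay on the mitochondrial chromosome, were nuclear pseudogenes of its genes, belonged to the tRNA class or were Y RNA features. The 317 higher features included 190 of 3765 protein-coding genes tested and 64 of 262 lncRNAs, mostly scarce in lEV and in cells. The protein-coding share was near the 5.45% of all features. In the rRNA class 6 of 44 tested features were higher, and in the rRNA pseudogene class 16 of 44. Values of 1 feature in the sEV libraries often differed many fold, whereas the lower features were more even in lEV: 114 of the 317 were within 5-fold across the sEV libraries and 95 of the 102 within 5-fold across the lEV libraries.

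**Figure D2:**
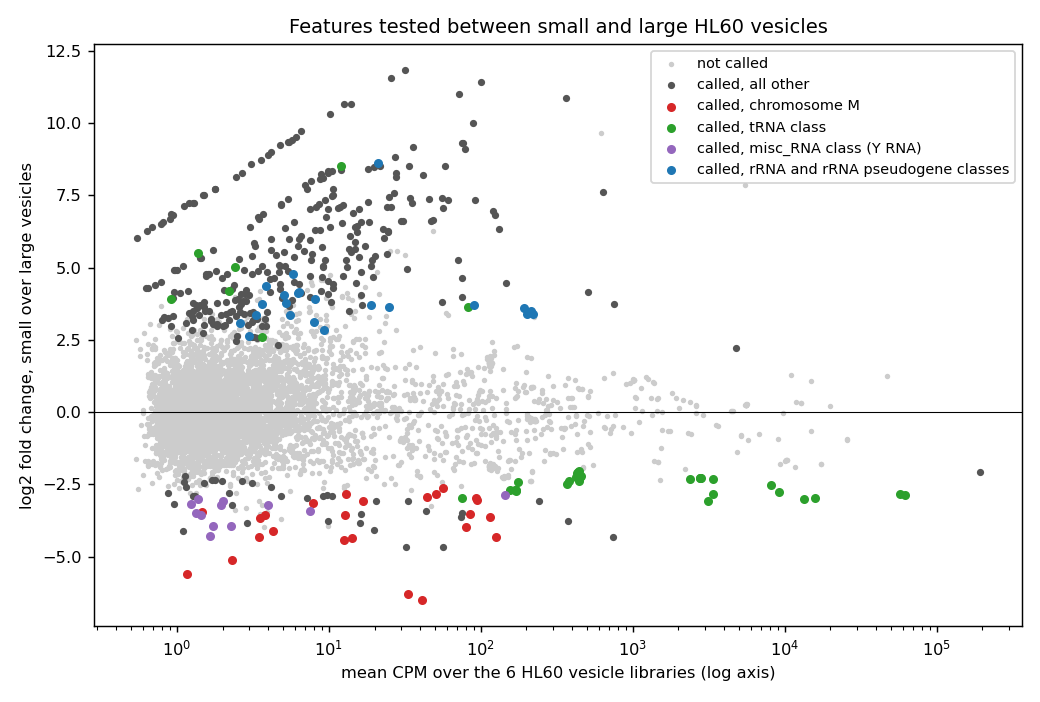
Mean CPM over the 6 libraries (log axis) against the log2 fold change of small over large vesicles for the 5813 features tested, with the 419 called ones coloured by class. Called tRNA entries (green) lie below 0 at the abundant end, with 7 above 0 that are mostly scarce, called features of chromosome M (red) lie below 0, and most called features above 0 are of low abundance.

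Unless said otherwise, log2 fold changes in this text are on the scale of edgeR's TMM factors, which set most features near 0. CPM, class shares, the ratios given as times higher and the overlap of groups use library totals without these factors. Scaling by library totals in place of TMM moved the median of all tested features from 0.07 to 1.04 on the log2 scale and gave 1028 higher and 36 lower, 96.6% of the calls higher against 75.7%. The calls also depended on each lEV library: without replicate 1, 2 or 3 of lEV no feature passed (smallest adjusted p 0.147, 0.157 and 0.110, with 1569, 1815 and 1447 features at an unadjusted p under 0.05), although at least 418 of the 419 called features had the same direction in each of these fits. Without sEV replicate 1, 2 or 3 the counts were 167, 237 and 1338 higher and 40, 28 and 249 lower.

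Most mRNAs and tRNAs of the mitochondrial chromosome that were tested were lower in sEV. Of 13 mitochondrial mRNAs, which encode subunits of the respiratory chain and ATP synthase, 11 fell and none rose, against 1.75% of all features lower, and their median log2 fold change was -2.96, where all tested features had 0.07. Their summed level was 752, 1469.5 and 1899 CPM in lEV and 480.0, 165 and 223 in sEV, 4.74 times higher in lEV, and 1515 to 2027 in cells. Each lEV library exceeded each sEV library, with a two-sided exact permutation p of 0.1. Under scaling by library totals the direction held with a median of -1.95, and 5 of 13 passed. None passed without any 1 of the lEV libraries, and 4 passed without sEV replicate 2.

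MT-CO2, a subunit of cytochrome c oxidase, had 136, 331 and 208 CPM in lEV and 33.6, 20.4 and 22.5 in sEV. It fell by 4.32 ± 0.74 on the log2 scale (SE, edgeR adjusted p = 0.0148), the lowest value among the mitochondrial mRNAs. MT-CO3 and MT-CO1 encode the other mitochondrial subunits of that enzyme. MT-CO3 had 55.8, 159 and 210.1 CPM in lEV and 24.7, 10.4 and 20.9 in sEV, and MT-CO1 had 75.8, 143 and 217 against 34.4, 19.2 and 23.3. MT-ND1, of respiratory complex I, had 87.0, 188 and 325 CPM in lEV, 44.0, 21.6 and 29.5 in sEV and 431 to 573 in cells. None of these 4 overlapped between the vesicle groups, and all were high in lEV replicates 2 and 3 relative to replicate 1.

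The other complex I mRNAs named by the rule were MT-ND4, with 87.3, 168 and 193 CPM in lEV and 66.0, 21.1 and 28.3 in sEV, and MT-ND5, with 79.4, 142 and 223 against 61.5, 24.9 and 28.9. sEV replicate 1 was the highest of its group in both. MT-CYB, the cytochrome b mRNA of complex III, had 65.7, 73.3 and 114 CPM in lEV and 55.1, 14.98 and 14.2 in sEV, at an adjusted p of 0.0486. The 2 mRNAs that did not pass were MT-ND3 and MT-ND4L, with log2 fold changes of -2.29 and -2.70 and adjusted p of 0.126 and 0.0683.

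Most mitochondrial tRNAs tested, which the organelle uses to translate those mRNAs, fell as well. The table lists 22, of which 18 were tested, 13 fell and none rose, against 1.75% of all features lower. Log2 fold changes ran from -6.49 to -1.63 over the 18, with a median of -3.60. MT-TH, whose sequence is shown above, had 22.7, 199 and 17.1 CPM in lEV and 0.909, 3.35 and 2.40 in sEV (log2 -6.49 ± 1.27 SE, adjusted p = 0.0151). MT-TN had 34.8, 143 and 16.2 CPM in lEV and 2.55, 1.32 and 2.59 in sEV, and 196 to 504 in cells. Both were far higher in lEV replicate 2 than in the other lEV libraries, and each sEV library lay below all of them. MT-TL2 had 2.52, 6.95 and 3.70 CPM in lEV and 0, 0.359 and 0.384 in sEV.

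Some mitochondrial tRNAs did not pass the test. MT-TV had 18.03, 26.0 and 134.4 CPM in lEV and 10.9, 30.3 and 19.5 in sEV, so its groups overlapped. MT-TS1 had 13.5, 14.8 and 18.9 CPM in lEV and 26.7, 3.35 and 2.50 in sEV, where replicate 1 was above all lEV libraries. MT-TC had 1.59, 2.41 and 3.70 CPM against 2.55, 0.719 and 1.25. MT-TS2 and MT-TF were the other tested tRNAs that did not pass, with adjusted p of 0.166 and 0.051. Without sEV replicate 2, 7 mitochondrial tRNAs passed, and without any 1 lEV library none did. Genes of both strands were among those that fell, 7 of 10 tested tRNAs on the plus strand and 6 of 8 on the minus strand.

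The mitochondrial rRNAs did not pass. MT-RNR2 had 2.68, 9.36 and 9.91 CPM in lEV and 1.46, 4.55 and 3.84 in sEV, and 12.2 to 28.3 in cells, with an adjusted p of 0.130. MT-RNR1 had 0.838, 2.56 and 2.44 CPM against 0.546, 2.28 and 3.55. Nuclear pseudogenes of mitochondrial genes can be close copies, so reads may be split between them and the organelle's genes. How alike the tested ones are was not measured. Of 24 such pseudogenes tested, a group formed after the calls were seen, 13 were lower and 1, MTND2P15, was higher, beside 1.75% and 5.45% of all features. MTCO2P12 on chromosome 1 (chr1:632757-633438), a copy of MT-CO2, had 72.6, 185 and 53.5 CPM in lEV and 12.2, 6.83 and 10.8 in sEV.

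**Figure D3:**
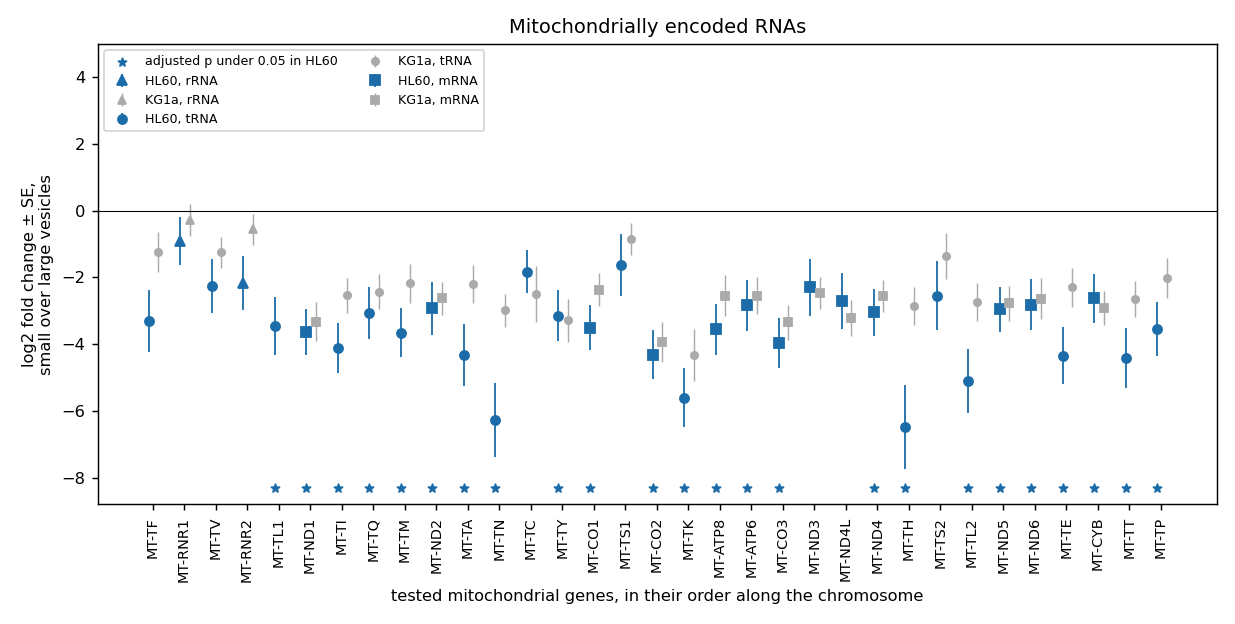
Log2 fold change of small over large vesicles with its standard error for the 33 mitochondrial genes tested, in their order along the chromosome, in HL60 (blue) and KG1a (grey), with stars along the bottom for the 24 genes that passed the test in HL60. All HL60 values lie below 0, from -6.49 for MT-TH to -0.92 for MT-RNR1.

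Of 3 Y RNA genes tested 1, RNY1, fell in sEV. RNY1 had 375, 185 and 100.1 CPM in lEV and 80.8, 61.1 and 63.6 in sEV, and 41.3 to 58.2 in cells. It fell by 2.87 ± 0.73 on the log2 scale (SE, adjusted p = 0.0333). RNY4 had 58.9, 37.6 and 20.1 CPM in lEV against 19.6, 14.6 and 13.2. Its groups did not overlap, but with an adjusted p of 0.0706 it did not pass. A group of 49 tested Y RNA genes or copies (symbols beginning RNY, or Rfam family RF00019) was formed after the calls were seen. In it 12 fell and none rose, with a median of -2.43, beside 1.75% lower and a median of 0.07 for all tested features. Those 12 were all the features of the misc_RNA class that fell, and copies this alike may share reads with the Y RNA genes. The summed level of the copies and genes overlapped between the groups, at 409 to 1152 CPM in lEV and 320 to 513 in sEV. Under scaling by library totals the median of the 49 stayed below 0 and 4 passed, RNY1 not among them. Without sEV replicate 1 or 2, 3 and 1 passed, and without any 1 lEV library none did.

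Entries of the tRNA class have RNAcentral identifiers without gene names in the references, so their genes of origin are not given here. Of 426 tested, 28 fell and 7 rose, beside 1.75% and 5.45% of all features. The class median was -0.60 on the TMM scale and 0.43 under scaling by library totals, and library totals gave 31 higher and 7 lower, so no direction is given for the class by fold change. Without sEV replicate 1 or 2, 2 and 7 entries fell, and without any 1 lEV library none did. The most abundant entry that fell, URS000038803E, took 12.1%, 8.70% and 7.77% of all counts in lEV and 2.70%, 2.25% and 3.65% in sEV, and 0.552% to 1.01% in cells. It fell by 2.88 ± 0.53 on the log2 scale (SE, adjusted p = 0.0148). The next most abundant entry had 6.70%, 10.3% and 9.16% in lEV and 2.43%, 1.91% and 3.74% in sEV. Both fell, and each sEV library lay below each lEV library. Other abundant tRNA entries did not follow them: the third of the class had 1.66%, 3.73% and 1.63% in lEV and 4.03%, 2.07% and 2.40% in sEV, with overlapping groups.

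Beyond these groups, 12 of the 3627 tested nuclear protein-coding genes with coordinates were lower in sEV, named here after their values were seen. This is a smaller share than the 1.75% lower among all features. All were scarce, with at most 21.3 CPM in any vesicle library. TMEM97, a membrane protein of sterol handling, had 4.11, 2.56 and 4.66 CPM in lEV and 0.546, 0.240 and 1.63 in sEV. LAPTM5, a lysosomal membrane protein of blood cells, had 12.1, 9.44 and 12.3 CPM against 3.27, 2.40 and 3.46. HSP90B1, a chaperone of the endoplasmic reticulum, had 5.03, 5.85 and 7.77 CPM against 1.46, 1.44 and 3.55. The other 9 were PDIA4, a disulfide isomerase of the same compartment, LAMP2, of the lysosomal membrane, GRN, the progranulin precursor, ANPEP, a surface peptidase of myeloid cells, and the genes ATF5, BCAT1, HES7, MLC1 and UBE4A, with log2 fold changes between -2.91 and -2.23. LAPTM5, HSP90B1 and ATF5 each hold a miRNA gene on the same strand, so their counts can include it.

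Some copies of ribosomal RNA genes were higher in sEV. A group of 9 tested copies of 5.8S rRNA (family RF00002 or RNA5-8SP symbols) was formed after the calls were seen. Of these 6 rose and none fell, beside 5.45% of all features higher, with a median of 3.39. The summed level of the 5.8S copies was 88.1, 15.4 and 195 CPM in lEV and 1608, 2227 and 1516 in sEV. Without sEV replicate 1, 2 of them passed, and none did without sEV replicate 2 or any 1 lEV library. RNA5-8SP2 had 14.8, 1.10 and 40.5 CPM in lEV, 318, 476 and 307 in sEV and 59.9 to 109 in cells (log2 3.59 ± 0.92 SE, adjusted p = 0.0338). The copy on chromosome 22 shown above had 18.4, 5.12 and 46.9 CPM in lEV and 388, 514 and 358 in sEV. Both were lowest in lEV replicate 2 and highest in sEV replicate 2, and these copies may share reads. The 8 entries of the 5.8S genes themselves did not pass: an RNA5-8SN2 entry on chromosome 21 had 2945, 3234 and 3316 CPM in lEV and 4455, 10113 and 9031 in sEV, with a log2 fold change of 0.25 ± 0.55 (SE, adjusted p = 0.824).

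The 5S rRNA is another RNA of the large ribosomal subunit. Its 39 pseudogenes tested were also grouped after the calls were seen. Of these 15 rose and none fell, beside 5.45% of all features higher, with a median of 2.73. The vesicle groups did not overlap in 39 of the 39 pseudogenes, beside 39.1% of all tested features. Their summed level was 450, 133 and 413 CPM in lEV and 1210, 2746 and 3927 in sEV. Scaling by library totals gave 36 higher, leaving out sEV replicate 2 gave 2, and leaving out any 1 lEV library gave none. The most abundant of them, RNA5SP202, had 125, 66.2 and 82.3 CPM against 211, 498 and 685 and did not pass, with an adjusted p of 0.265. RNA5SP202 and the other 5S pseudogenes may share reads with the 5S genes. The most abundant rRNA entry, without a gene name, held 2.61%, 1.00% and 1.22% of all counts in lEV and 5.59%, 12.8% and 5.28% in sEV, and did not pass either (adjusted p = 0.242).

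In the snRNA class the most abundant riser was an entry without a gene name, URS000233747B, with 749, 338 and 2004 CPM in lEV and 7365, 5358 and 13107 in sEV (log2 2.21 ± 0.59 SE, adjusted p = 0.0420). RNU2-39P and RNU2-3P, copies of the U2 RNA that recognises the intron branch point, rose by 2.60 and 2.61 on the log2 scale. RNU4-2 and RNU5B-1, genes of the U4 and U5 RNAs, overlapped between the groups, with 195 to 924 CPM in lEV and 475 to 674 in sEV for RNU4-2. None of the 5 tested members of the spliceosomal snRNA gene list passed.

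Few miRNA features passed. Of 173 tested in the miRNA class, 5 rose and none fell, and of 190 in the pre_miRNA class 2 rose and 1 fell, both near or under the 5.45% and 1.75% of all features. URS000028C188, without a gene name, had 37.98, 3.73 and 152 CPM in lEV and 1181, 691 and 2471 in sEV (log2 3.76 ± 0.94 SE, adjusted p = 0.0321). The 1 riser of the class with a symbol, MIR6087, had 0.838, 0.878 and 1.78 CPM in lEV and 21.5, 169 and 2.02 in sEV. The most abundant miRNA entry, at 2235 to 10014 CPM in lEV and 13019 to 21060 in sEV, did not pass (log2 0.35, adjusted p = 0.754). The gene entries of the let-7 list and of the list of miRNAs of other tissues or serum held too few counts to be tested, and these miRNAs may be counted under unnamed RNAcentral entries.

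The genes that rose most among those with at least 50 CPM were uneven across the sEV libraries. NEFM, a neurofilament subunit, had 0.252, 0 and 0 CPM in lEV, at most 0.143 in cells, and 176, 350.4 and 5.19 in sEV (log2 10.01 ± 1.77 SE, adjusted p = 0.0148). ADCK2, a mitochondrial kinase-like protein, had 0.335, 0.146 and 0.814 CPM against 88.2, 263 and 11.6, and ZBTB11, a zinc finger protein, 0.252, 0.512 and 0.518 against 91.1, 241 and 5.76. AC007450.4, a processed pseudogene, had 0 to 0.0732 CPM in lEV and 283, 141 and 4.52 in sEV, and AC008735.5 had 0.219 to 0.922 and 157, 383 and 9.90. In these 5, sEV replicates 1 and 2 were high and replicate 3 was the lowest of its group, still above all lEV libraries.

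The other 7 of the 12 named risers owed their mean to sEV replicate 1. CCDC187 had 4.02, 0.805 and 5.25 CPM in lEV, 3767, 49.5 and 15.1 in sEV and 65.5 to 103 in cells. TBRG4, whose introns hold snoRNA genes, had 1.17 to 1.997 CPM in lEV and 766, 14.6 and 2.88 in sEV. ZNF236 had 734, 5.63 and 2.59 in sEV, KCNC4, a potassium channel gene, 708, 8.99 and 4.52, LINC02325 447, 0.959 and 5.19, SNRNP35, a protein of the minor spliceosome, 338, 3.60 and 6.15, and ESPNL 321, 8.15 and 4.90, each with at most 1.32 CPM in any lEV library. KCNC4 holds a small RNA gene on its strand, as ZBTB11 holds the Y RNA copy RNY1P12 and PCNA a further small RNA gene, so their counts can include these. Over all 317 features that rose, 51 had at least 80% of their summed sEV CPM in replicate 1, 7 in replicate 2 and 7 in replicate 3. With sEV replicate 1 left out, 167 features rose, as given above. PCNA, the sliding clamp of DNA replication, had 53.1, 1.90 and 6.36 CPM in lEV and 32870, 3.60 and 5.67 in sEV and did not pass (adjusted p = 0.289).

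**Figure D4:**
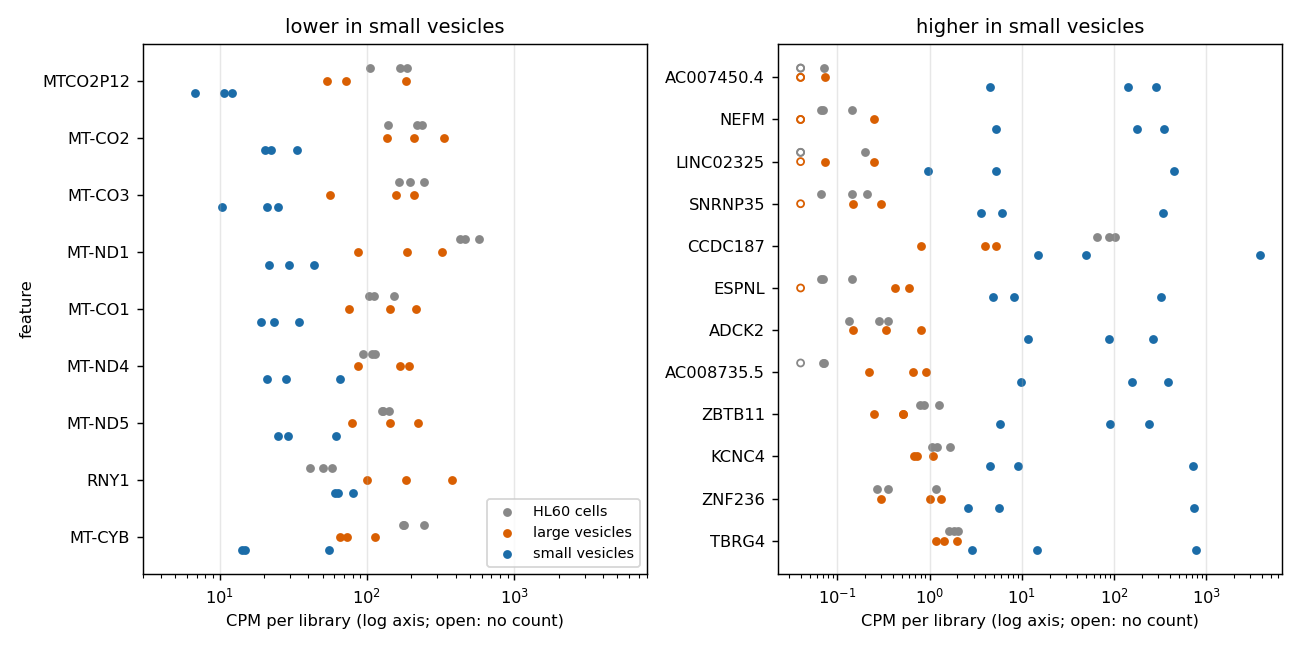
CPM in each library (log axis, open circles for no count) of the 9 features that were lower (left) and the 12 that were higher (right) by the naming rule, for HL60 cells (grey), large vesicles (orange) and small vesicles (blue). Each lower feature has its orange dots to the right of its blue ones, and for the higher features the blue dots of a feature lie far apart, as for CCDC187 at 15.1 to 3767 CPM.

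Most of the 317 features that rose were scarce outside sEV. In 280 of them every lEV library was under 1 CPM and in 237 every cell library was, and 33 had no count in lEV. Their median mean level was 0.133 CPM in lEV, 0.229 in cells and 10.6 in sEV. The 102 that fell had median mean levels of 34.3 CPM in lEV, 42.8 in cells and 5.07 in sEV. Groups did not overlap in 316 of the 317 and in 91 of the 102, beside 39.1% of all tested features. This follows in part from the selection, since the test that chose these features used the same libraries. The scarcity in lEV does so too, since features scarce there entered the test largely through their sEV counts. RNU11-6P, a copy of the U11 RNA of the minor spliceosome, had no count in lEV and 123, 28.3 and 2.50 CPM in sEV, most of it in replicate 1. The 184 protein-coding genes with coordinates that rose spanned a median of 39.0 kb, beside 41.3 kb for the 3627 tested.

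In most other lists no member or 1 passed. Of 71 ribosomal protein mRNAs tested, 1 rose and none fell, with 63 below 0 and a median log2 fold change of -1.26 on the TMM scale and -0.22 with library totals. That 1 was RPL24, at 397 CPM in sEV replicate 1 and 9.83 and 11.6 in the others. RPL4, whose introns hold snoRNA genes, had 96.8, 48.7 and 51.3 CPM in lEV and 28.6, 37.3 and 33.9 in sEV, with an adjusted p of 0.0875. None of 48 histone mRNAs, 10 translation factor mRNAs, 15 glycolysis and cytoskeleton mRNAs, 21 snoRNA host genes, 14 C/D snoRNA genes, 4 Cajal body RNA genes or 4 neutrophil granule mRNAs passed. Of 19 H/ACA snoRNA genes 1, SNORA38B, fell and none rose. The histone median was -0.99, with 47 of 48 below 0, and that of the glycolysis and cytoskeleton mRNAs -0.79, with 14 of 15 below 0, beside 0.07 for all tested features. With library totals these medians were 0.02 and 0.11, beside 1.04, so no direction is given for either list. EEF1A1, a translation elongation factor, had 14.5 to 27.6 CPM in lEV and 14.1 to 21.5 in sEV, and GAPDH 6.07 to 13.5 and 4.18 to 11.5, with overlapping groups.

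Of the nuclear lncRNA list, KCNQ1OT1 rose through sEV replicate 1, with 285, 3.12 and 3.17 CPM against 0.335 to 0.512 in lEV, and NEAT1, the scaffold of paraspeckles, did not pass, with 4.53, 2.999 and 5.84 CPM in lEV and 7.46, 7.55 and 7.78 in sEV. HSPA8, a chaperone gene whose introns hold snoRNA genes, had 146, 45.4 and 659 CPM in lEV and 801, 750.2 and 2057 in sEV and did not pass (adjusted p = 0.296). The vault RNA gene VTRNA1-3 had 2.43, 1.61 and 3.40 CPM against 21.3, 37.5 and 20.4, with an adjusted p of 0.0657. SCARNA11 had 7.63, 5.41 and 9.39 CPM against 55.7, 74.8 and 84.8, at 0.0660. RN7SL1, the RNA of the signal recognition particle, overlapped between the groups, and no member of the RNase P and MRP, MIR17-92 or myeloid miRNA lists passed. No member of the stem cell or erythroid and plasma lists reached the level for testing.

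KG1a vesicles gave the same direction for most of these features. In KG1a, 262 features were higher and 146 lower in sEV among 7682 tested, 5.31% in all, 3.41% higher and 1.9% lower. Of the 102 that fell in HL60, 86 were tested in KG1a, 83 had a log2 fold change below 0 there and 52 passed, which is 60.5% of the HL60 set tested in KG1a and 39.1% of the KG1a calls tested in HL60. Of the 317 that rose, 203 were tested, 200 were above 0 and 92 passed (45.3% and 49.5%). Features scarce in KG1a lEV as well could enter that test largely through their sEV counts. A value above 0 in KG1a was thus in part set by the filter. The median log2 fold change over all features tested in KG1a was 0.13. All 13 mitochondrial mRNAs fell in KG1a, and 10 of 18 mitochondrial tRNAs. No feature was called in opposite directions.

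The difference between the lines, tested as an interaction over the 12 vesicle libraries, found no feature among 10583 (0% called in edgeR, smallest adjusted p 0.521, with 796 at an unadjusted p under 0.05). The 5S pseudogenes had a median log2 fold change of 2.73 in HL60 and 0.37 in KG1a, where none passed. Of the 50 tested for the difference in edgeR, 34 had an unadjusted p under 0.05. They and the 5.8S copies were grouped after the HL60 calls were seen. Members of each group may share reads, so the 34 are not separate observations. The 5.8S copies had medians of 3.39 over 9 tested in HL60 and 0.88 over 10 tested in KG1a, where none passed. MT-TN fell by 6.28 on the log2 scale in HL60 and by 2.99 in KG1a. None of these differences passed after adjustment.

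**Figure D5:**
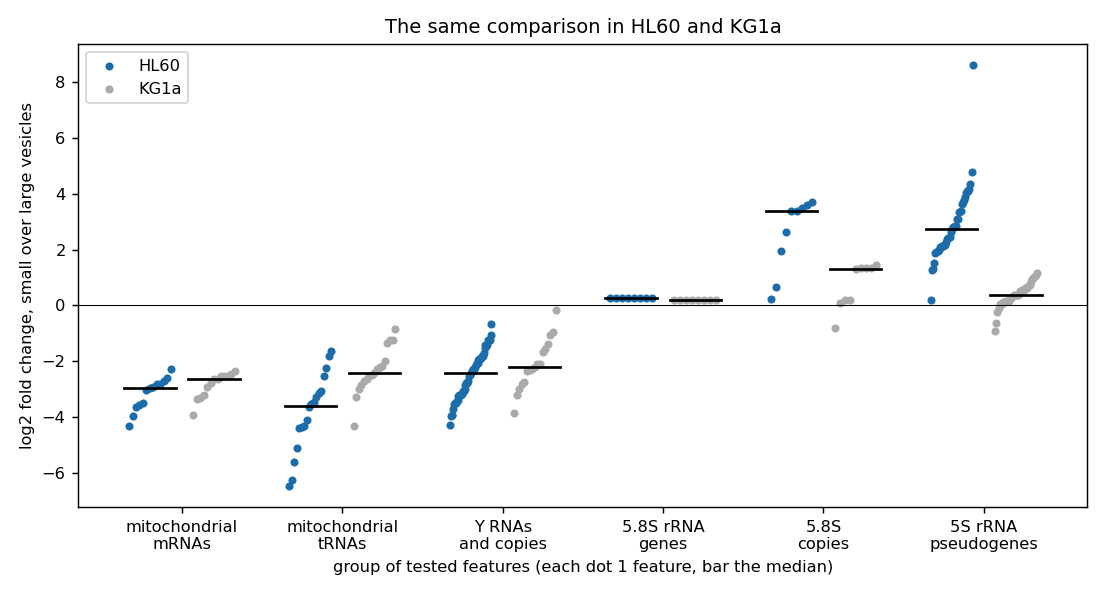
Log2 fold change of small over large vesicles for features tested in HL60 (blue) and their values in KG1a where tested there (grey), by group, with a bar at the median of the dots. Mitochondrial and Y RNA features lie below 0 in both lines, and the 5.8S copies and 5S pseudogenes lie higher in HL60, a difference in which no feature passed the adjusted test.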

How the data were processed

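Per the submitters' processing notes, the authors aligned reads with Bowtie2 to GRCh38 (hg38). Versions, the counting program, the annotation, strand and the treatment of reads with several hits are not given in the sources used here. The deposited table holds raw counts per feature, in 38 columns that each matched 1 labelled library. Symbols and coordinates came from GENCODE 29. CPM are counts per 1000000 counts of the library total. The test was edgeR 4.0.16 in R 4.3.3 (TMM, filterByExpr, robust quasi-likelihood, 6 libraries, adjusted p under 0.05), with 3 libraries per group. On simulated counts for this comparison over 5813 features, with 159 of the tested ones changed 16-fold, it recovered 100% and 2.5% of its calls were false. The simulation gave every feature the same spread between libraries (dispersion 0.3). It checks that the procedure runs as meant and does not give the error rate of the calls on the real libraries. Class shares and detected features were tested by exact permutation, and single counts carry counting error only.

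Members and lists were chosen with earlier results of these data known. Named features were called ones with a symbol whose groups did not overlap and whose mean reached 50 CPM (12 per direction, counting features that share reads once), a fixed panel, the 3 most abundant of each list and class leaders. Groups of Y RNA copies, 5S, 5.8S and U2 copies and mitochondrial pseudogenes were formed after seeing the calls. Of features without a symbol, 2 per direction are given by identifier. Alternatives were other scaling, filters, DESeq2 1.42.0, 4 groups in the fit, a replicate block and each library left out. Leaving out libraries on unchanged features was chosen after seeing the data.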

Additional observations from a re-analysis of the deposited data

Results flagged for a closer look

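The scaRNA class had opposite directions in the lines. In HL60 its share was lower in every sEV library than in every lEV library, with a mean difference of -0.0578 percentage points, and in KG1a it was higher in every sEV library, at 0.0464%, 0.0519% and 0.135% against 0.0123%, 0.0292% and 0.0446%, by 0.0490 points. This difference between the lines was not tested. In HL60 the most abundant scaRNA entry, which has no gene name, had 1214, 343 and 372 CPM in lEV and 70.6, 100.3 and 138 in sEV (edgeR log2 fold change -3.78, adjusted p = 0.0151), while SCARNA6 had 185, 388 and 389 CPM against 143, 284 and 330.1. Of the 10 scaRNA features tested in HL60 only that entry passed, 5 were below 0, and their median log2 fold change was 0.38. The lower share of the class in HL60 therefore rests largely on 1 entry.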

How the results depend on the processing

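The number of features higher in HL60 sEV, 317 in the text, was 1028 with library totals in place of TMM, 1696 without a filter on low counts, 101 with at least 50 counts required in 3 libraries and 689 in DESeq2. The number lower, 102, was 36 with library totals and 183 with all 4 vesicle groups in the fit. With each library left out in turn the counts ran from 0 to 1338 higher and from 0 to 249 lower, and on unchanged features from 0 to 442 (206 without sEV replicate 1 and 206 without replicate 2) and from 0 to 95 (57 without sEV replicate 1). In KG1a, library totals gave 1363 higher and 84 lower. With a replicate block the HL60 counts were 292 higher and 95 lower, and the KG1a counts 630 and 477. Same-numbered HL60 libraries correlated at 0.1229, 0.0938 and 0.1347 in their deviations, each best with its own number, which is a hint from the data and not the design. The lncRNA share was 1.94 percentage points higher in sEV without ENSG00000286171.1, and the unprocessed pseudogene share, 0.00582 points higher in sEV, was -0.000399 without it and ran from -0.0197 to 0.0192 with 1 library left out. The other 17 class differences kept their direction. The 11 mitochondrial mRNAs that fell numbered 4 to 12 over the alternatives that kept all lEV libraries, the 13 mitochondrial tRNAs 7 to 16, the 12 Y RNA features 1 to 37, the 28 tRNA entries 2 to 48, the 15 risen 5S pseudogenes 2 to 36 and the 6 risen 5.8S copies 0 to 7. The cause of these shifts was not tested. Features under about 1 CPM rest on few counts.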
